A study of Canis lupus familiaris with 12 samples.

Results

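The genes described here are SOCS1, SOCS2, SOCS3, CISH, PIM1, PIM2, BCL6 and STAT3, a set of 8 genes that cytokine receptors switch on and that feed back on cytokine signalling. They were picked by gene symbol and not by a cut on their measured values, though earlier results of these data were known. A row was matched for 7 of the 8 among 29822 annotated dog genes, and SOCS3, for which none was matched, is not analysed here. All 7 passed the filter on low counts, which kept 13358 genes in all.

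Many cytokine receptors have no enzyme activity of their own and signal through bound JAK kinases, which phosphorylate STAT transcription factors. The STATs switch on SOCS1, SOCS2, SOCS3 and CISH, whose proteins bind the activated kinases or receptors and damp the signal through a domain, the SOCS box, that recruits a ubiquitin ligase. PIM1 and PIM2 are serine/threonine kinases of the same target set that favour growth and survival of lymphocytes, and BCL6 is a transcriptional repressor of germinal centre B cells and follicular helper T cells that STAT3 can raise and STAT5 can lower. These roles are known from human and mouse cells.

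RNA-seq was done on cultured PBMCs, the lymphocytes and monocytes of blood, from healthy, specific-pathogen-free male beagles that served as blood donors. After isolation on a density gradient, the cells were cultured for 24 h with 0.5 µg/ml of the T cell mitogen concanavalin A (ConA) plus 1.0 mM of the heme precursor 5-aminolevulinic acid (ALA), with ConA alone, with ALA alone, or with neither. There were 3 libraries, numbered 1 to 3, in every one of the 4 groups, and all shared a medium with fetal bovine serum and 2-mercaptoethanol. The labels do not say that the numbers are separate dogs, so p-values cover only the spread among these libraries, which could be technical.

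Exon reads ranged from 13390692 to 21517099 per library. Libraries of the same number resembled each other across groups, and the 4 libraries of number 1 stood apart, with 3.59 to 4.82% of exon reads from mitochondrial genes against 11.9 to 23.4% in numbers 2 and 3. Differences were therefore given from edgeR's quasi-likelihood test in 2 models, one of the 4 group means and one with the number added as a block, each adjusted by Benjamini-Hochberg over all 13358 genes with a threshold of 0.05. Levels are CPM, the exon counts scaled to a common TMM-adjusted library size, and fold changes are log2 with their SE. In bulk RNA, fewer cells of a type and less RNA per cell cannot be told apart.

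Compared per length of exon, the deposited TPM values placed SOCS1 and PIM2 among the more abundant members and SOCS2 at the bottom. In untreated cells the mean levels were 130 ± 50.2 TPM for SOCS1, 124 ± 67.6 for PIM2, 76.2 ± 40.6 for STAT3, 64.1 ± 49.7 for CISH, 62.2 ± 35.6 for PIM1, 18.0 ± 11.5 for BCL6 and 3.71 ± 3.94 for SOCS2 (SD, n = 3). The ranges of the first 5 overlapped, so their order is not resolved over the 3 libraries. BCL6 was the sixth and SOCS2 the seventh in 12 of 12 libraries. With ConA the mean of SOCS1 was 203 ± 11.3 TPM, that of CISH 124 ± 99.6, that of PIM2 123 ± 60.5 and that of PIM1 46.9 ± 27.5 (SD, n = 3). The order inside a library depended on its number. In number 1, CISH was at 277 TPM with ConA and ALA, 237 with ConA, 97.0 with ALA and 121 in untreated cells, while in number 2 it was at 91.4, 52.4, 22.5 and 28.2 TPM in the same order of groups.

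**Figure D1:**
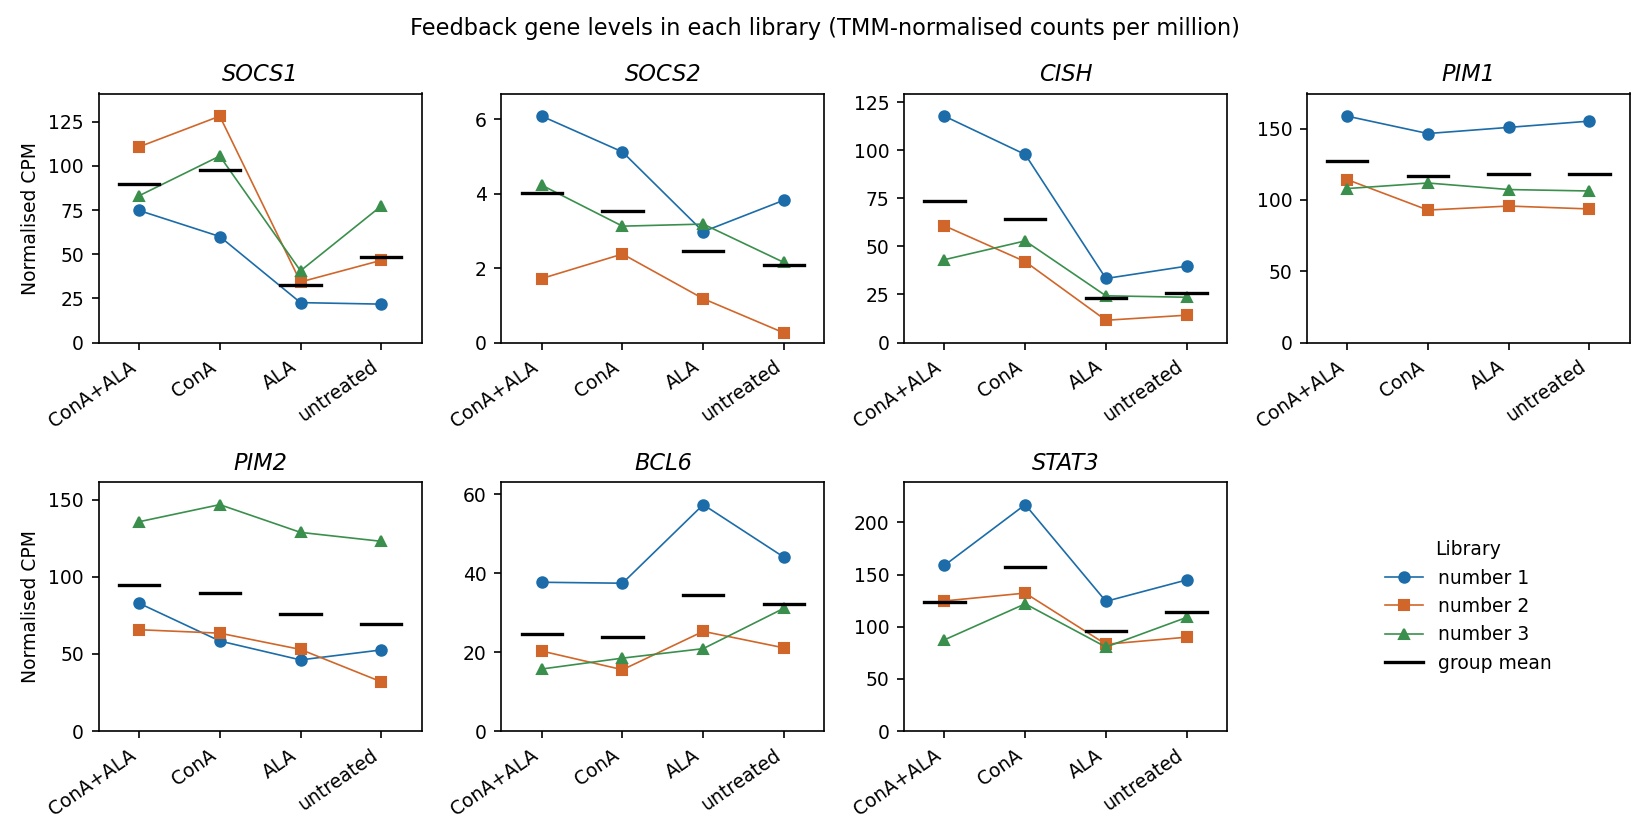
Level of each of the 7 members in CPM (vertical axes, each from 0) in the 12 libraries, by group. Points are libraries, lines join libraries of the same number across groups and are not a time course, and bars are group means. SOCS1 and CISH lie higher in both groups with ConA, PIM1 is nearly level, and number 1 is highest in all 4 groups for BCL6, CISH, PIM1 and STAT3.

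The first comparison asks how activation by ConA alone changed these genes. SOCS1 rose 2.11-fold and CISH 2.52-fold with the number as a block. With ConA 5 of 7 members were higher in 3 of 3 numbers, where 30.6% of all tested genes were, and 1, BCL6, was lower in 3 of 3, where 34.3% were. In the model of group means, 0 of the 7 members passed the threshold, where 18.5% of all tested genes did. In the model with the number as a block, 4 of 7 passed, namely SOCS1, CISH and STAT3 upwards and BCL6 downwards, where 42.5% of all tested genes did (21.3% upwards and 21.2% downwards). A share of this size is not a result about the members as a set. With group means, 2 members had an unadjusted p under 0.05, where 32.2% of all tested genes did. DESeq2 called 1, CISH (adjusted p = 0.0432), where it called 24.9% of genes. On all reads of each gene, the block called 4 members, with SOCS2 in place of BCL6, where 38.8% of genes were called, and the block in DESeq2 on exon reads called 5, with PIM2 added, where 45.0% were.

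SOCS1 encodes an inhibitor that binds JAK kinases directly and blocks them, and it is best known for restraining interferon and IL-2 signals. Its levels in numbers 1, 2 and 3 were 60.0, 128 and 106 CPM with ConA, against 21.7, 46.6 and 77.3 CPM in untreated cells. Each number was higher with ConA, by 2.76, 2.75 and 1.37 times, but the groups overlapped because number 1 with ConA lay below number 3 without it. The log2 fold change was 1.01 ± 0.42 with group means (edgeR adjusted p = 0.113) and 1.08 ± 0.25 with the block (adjusted p = 0.00477), a fold of 2.11 with a 95% interval of 1.45 to 3.09. SOCS1 therefore rose in the blocked model only. That call held with each of the 12 libraries left out and with number 1 or number 3 left out, and was lost without number 2, at 0.92 and an adjusted p of 0.0868.

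CISH, whose protein docks on phosphorylated receptor chains such as that of IL-2 and is a classic target of STAT5, had non-overlapping groups. It was at 97.8, 42.1 and 52.9 CPM with ConA in numbers 1, 2 and 3, against 39.7, 14.2 and 23.6 CPM in untreated cells. The lowest ConA library thus lay above the highest untreated one, a pattern that 17.3% of all tested genes showed upwards. The log2 fold change was 1.31 ± 0.51 with group means (edgeR adjusted p = 0.0931) and 1.33 ± 0.22 with the block (adjusted p = 0.000262), a fold of 2.52 with a 95% interval of 1.82 to 3.49. CISH kept its blocked call with each of the 12 libraries and each of the 3 numbers left out, with a highest adjusted p of 0.00568.

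SOCS2, a regulator of growth hormone receptor signalling in mice that is also induced by cytokines, was scarce in exon reads. Its levels were 5.12, 2.38 and 3.1 CPM with ConA, against 3.83, 0.259 and 2.15 CPM in untreated cells, the lowest resting on 4 reads. All 3 numbers were higher with ConA and the groups overlapped. With all libraries neither model called it (0.76 ± 0.76, edgeR adjusted p = 0.535, and blocked 1.06 ± 0.46, adjusted p = 0.0776). The block called SOCS2 in 1 of 12 fits without 1 library, that without untreated 1 (1.53, adjusted p = 0.0426). It called SOCS2 in 0 of 3 fits without a number. Most SOCS2 reads fell outside annotated exons, between 71.1 and 97.3% per library. Counting all reads of the gene gave 533, 304 and 430 reads with ConA, against 294, 149 and 182 in untreated cells. On that count SOCS2 rose by 1.15 ± 0.30 (group means, edgeR adjusted p = 0.0234) and 1.17 ± 0.19 (block, adjusted p = 0.000277). The count of all reads was tried after the exon counts had been seen. It called 1 of 7 members with group means, where 14.9% of genes were called.

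PIM1 and PIM2 differed in how their libraries lay. PIM1 was at 147, 92.9 and 112 CPM with ConA, against 155, 93.7 and 106 CPM in untreated cells, and each pair of the same number stood within a ratio of 0.944 to 1.05. With the block the PIM1 fold was 0.995 with a 95% interval of 0.839 to 1.18 (edgeR adjusted p = 0.970). PIM2 was at 58.4, 63.5 and 147 CPM with ConA, against 52.6, 31.9 and 123 CPM in untreated cells. The ratios of PIM2 were 1.11, 1.99 and 1.19, higher in each number, but its fold of 1.36 in the blocked model, with a 95% interval of 1.05 to 1.77, missed the threshold after adjustment (adjusted p = 0.0571). PIM2 passed with the block in DESeq2 (adjusted p = 0.0487) and in the edgeR block without ALA 1, untreated 3, ConA+ALA 3 or number 1 (adjusted p of 0.0490, 0.0333, 0.0433 and 0.0295). PIM2 overlaps PQBP1 on the opposite strand, and whether counting used strand is not given in the sources used here.

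STAT3 encodes the transcription factor that carries signals of IL-6, IL-10 and IL-21 and that raises its own gene. It was at 217, 132 and 122 CPM with ConA, against 145, 89.9 and 109 CPM in untreated cells, higher in each number with overlapping groups. The change was 0.45 ± 0.30 with group means (edgeR adjusted p = 0.334) and 0.43 ± 0.14 with the block (adjusted p = 0.0219), a fold of 1.35 with a 95% interval of 1.10 to 1.65. The blocked call on STAT3 was lost in 3 of 12 fits without 1 library, namely without untreated 1, ConA 1 or untreated 2 (adjusted p of 0.0783, 0.107 and 0.129), and remained in 1 of 3 fits without a number, being lost without number 1 (adjusted p = 0.144) or number 2 (adjusted p = 0.0992).

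BCL6 was the member that lay lower with ConA. Its levels were 37.5, 15.5 and 18.5 CPM with ConA, against 44.1, 21.1 and 31.1 CPM in untreated cells, lower in each number by ratios of 0.850, 0.737 and 0.594, with overlapping groups. The change was −0.43 ± 0.48 with group means (edgeR adjusted p = 0.589) and −0.49 ± 0.19 with the block (adjusted p = 0.0467), a fold of 0.712 with a 95% interval of 0.540 to 0.939. On all reads of the gene the blocked change was −0.44 ± 0.19 and no longer passed (adjusted p = 0.0890). The blocked call on exon reads remained in 5 of 12 fits without 1 library and in 0 of 3 without a number, and without untreated 3 the change was −0.23 (adjusted p = 0.359). The calls lost with 1 library out were those without ALA 1, ConA 1, ConA+ALA 1, ALA 2, ConA 2, untreated 3 or ConA 3. Monocyte markers moved the same way, of which 9 of 10 were measured and none was at 0 throughout a group (S100A12 was at 0 in ConA 3). With the block 8 of 9 fell, where 21.2% of all tested genes did. Their summed levels were 110 to 370 CPM with ConA, against 449 to 859 CPM in untreated cells. Markers of other cell types fell with the block too: 8 of 10 B cell, 9 of 14 T cell, 4 of 6 neutrophil and 2 of 4 NK cell markers. With ConA and in untreated cells, number 1 was highest for BCL6 and for the monocyte sum, but not for every monocyte marker. FCGR1A was lowest in number 1 in both groups. The part of any of these cell types in the BCL6 values was not tested.

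**Figure D2:**
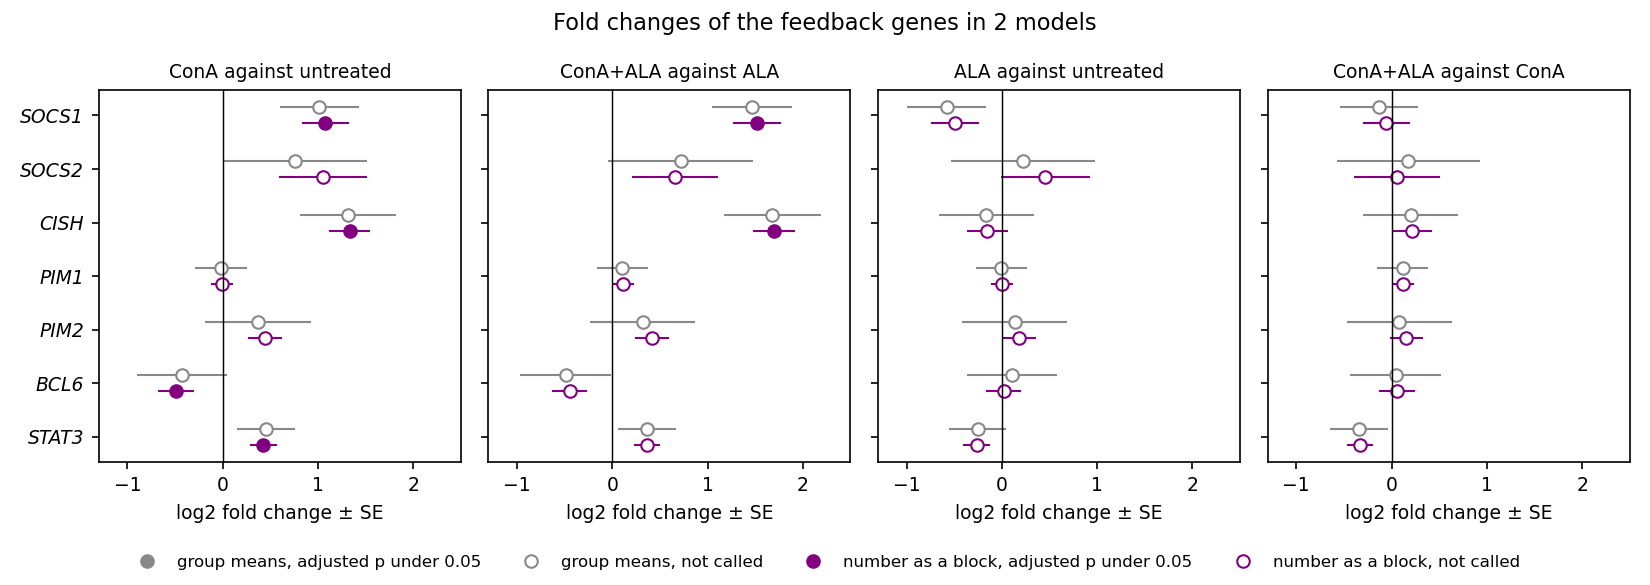
Log2 fold change of the 7 members in the 4 comparisons, with SE bars. Grey points are the model of group means, purple points the model with the number as a block, and filled points passed an adjusted p of 0.05. With the block, SOCS1 and CISH pass in both comparisons with ConA, STAT3 and BCL6 pass with ConA alone, and no member passes in either comparison that adds ALA.

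The second comparison asks for the effect of ConA when both groups held ALA. SOCS1 and CISH again lay higher with ConA, here without overlap of the groups, a pattern shown upwards by 14.9% of all tested genes. With group means 0 of 7 members passed, where 8.12% of all tested genes did, and with the block 2 passed upwards, where 30.1% did (15.8% upwards). Here 6 of 7 members were higher in 3 of 3 numbers, where 28.2% of all tested genes were, and BCL6 was lower in 3 of 3, where 32.2% were. With group means 2 members had an unadjusted p under 0.05, where 23.1% of all tested genes did. DESeq2 called 2, where it called 13.7% of genes. The block called 3 on all reads of each gene, with SOCS2 added, where 27.9% of genes were called, and the block in DESeq2 called 2, where 33.2% were. This comparison shares no library with the first one, but its libraries carry the same numbers.

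SOCS1 was at 74.8, 111 and 83.1 CPM with ConA and ALA, against 22.6, 34.3 and 40.6 CPM with ALA alone. Every library with both agents lay above every library with ALA. The log2 fold change was 1.46 ± 0.42 with group means (edgeR adjusted p = 0.0531) and 1.52 ± 0.25 with the block (adjusted p = 0.00100), a fold of 2.86 with a 95% interval of 1.95 to 4.20. CISH was at 118, 60.7 and 43.1 CPM with ConA and ALA, against 33.3, 11.6 and 24.3 CPM with ALA alone. The CISH ratios by number were 3.54, 5.24 and 1.77. The change was 1.68 ± 0.51 with group means (adjusted p = 0.0652) and 1.70 ± 0.22 with the block (adjusted p = 8.79e-05), a fold of 3.25 with a 95% interval of 2.33 to 4.53. Both genes kept their blocked calls here in 12 of 12 fits without 1 library and in 3 of 3 without a number.

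The other 5 members did not pass in this comparison on exon reads. STAT3 was at 159, 125 and 87.4 CPM with ConA and ALA, against 124, 83.2 and 80.5 CPM with ALA (blocked 0.36 ± 0.14, edgeR adjusted p = 0.0617). BCL6 was at 37.7, 20.3 and 15.7 CPM with both agents, against 57.4, 25.3 and 20.9 CPM with ALA, lower in each number (blocked −0.45 ± 0.19, adjusted p = 0.0846), while summed monocyte markers were at 138 to 373 CPM, against 348 to 1600 CPM. PIM2 was at 82.9, 65.7 and 136 CPM with both, against 46.1, 52.9 and 129 CPM with ALA (blocked 0.42 ± 0.18, adjusted p = 0.0908). STAT3, BCL6 and PIM2 each passed in 2 of 12 fits of the blocked model without 1 library. For STAT3 these were the fits without untreated 3 or ConA+ALA 3 (edgeR adjusted p of 0.0453 and 0.0315). BCL6 passed without untreated 3 or ALA 3 (0.0467 and 0.0371), and PIM2 without untreated 2 or ConA+ALA 3 (0.0420 and 0.0365). PIM1 was at 159, 114 and 108 CPM with both, against 151, 95.7 and 107 CPM with ALA, ratios of 1.05, 1.19 and 1.01. SOCS2 was at 6.08, 1.72 and 4.23 CPM with both, against 2.98, 1.18 and 3.18 CPM with ALA, and was not called on exons (blocked 0.66 ± 0.46, adjusted p = 0.302). On all reads of the gene, 536, 373 and 438 with both agents against 281, 158 and 224 with ALA, SOCS2 rose by 1.24 ± 0.30 (group means, adjusted p = 0.0330), one of 2 members called on that count, with SOCS1, where 6.36% of genes were called.

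The remaining comparisons ask what ALA did, without and with ConA. No member passed in either, in any alternative that was run. Against untreated cells, edgeR with group means called 0 of all tested genes (0.0%) and the block called 0.0449%. Of all genes, 155 had an unadjusted p under 0.05 there, none of them a member, and DESeq2 called 4 (0.0299%). With ConA and ALA against ConA, group means called 0 genes (0.0%), the block 0.554% and DESeq2 49 (0.367%), while 445 genes had an unadjusted p under 0.05, again with no member among them. Each library of ALA and each untreated library enters 2 of these comparisons, as do those with ConA, so the comparisons are not independent.

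With ALA, SOCS1 was at 22.6, 34.3 and 40.6 CPM, against 21.7, 46.6 and 77.3 CPM in untreated cells. The SOCS1 fold with the block was 0.712 with a 95% interval of 0.486 to 1.04 (edgeR adjusted p = 0.846), an interval that includes 1. CISH had a fold of 0.900 (0.649 to 1.25) and STAT3 one of 0.832 (0.678 to 1.02) in the same model. Over the 7 members the blocked log2 changes lay between −0.49 and 0.46. STAT3 was lower with ALA in 3 of 3 numbers, by ratios of 0.859, 0.925 and 0.739, as were 15.9% of all tested genes.

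With ConA and ALA, SOCS1 was at 74.8, 111 and 83.1 CPM, against 60.0, 128 and 106 CPM with ConA alone, a blocked fold of 0.964 with a 95% interval of 0.664 to 1.40. CISH had a fold of 1.16 (0.844 to 1.59). STAT3 was at 159, 125 and 87.4 CPM with both agents, against 217, 132 and 122 CPM with ConA, lower in 3 of 3 numbers, as were 18.1% of all tested genes. Its blocked fold of 0.796 had a 95% interval of 0.648 to 0.977, with an unadjusted p of 0.0316 and an edgeR adjusted p of 0.432. Whether the effect of ConA differed with ALA was tested as an interaction over all 13358 genes. The 7 members had interaction terms of −0.09 to 0.45 on the log2 scale with group means and −0.40 to 0.44 with the block, with 0 called in either model and 0 by DESeq2, where the models called 0.0% of all genes each and DESeq2 0.0299%. Of all genes, 222 had an unadjusted p under 0.05 for this term with group means. Among the 7 members the smallest unadjusted p was 0.454 with group means and 0.236 with the block.

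Within the groups, 1 end of the order of the numbers was the same in all 4 groups for each member, while the rest of the order changed. Number 1 was highest in all 4 groups for BCL6, CISH, PIM1 and STAT3 and lowest in all 4 for SOCS1. Number 3 was highest in all 4 groups for PIM2, and number 2 was lowest in all 4 for SOCS2. For PIM1, number 1 stood at 147 to 159 CPM over the 4 groups, above the 92.9 to 114 CPM of numbers 2 and 3.

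The members also differed in where their reads fell. The share of a gene's reads outside its annotated exons was 39.0 to 47.8% for SOCS1, 31.9 to 43.3% for CISH, 15.2 to 21.2% for PIM1, 4.45 to 27.4% for PIM2 and 7.51 to 27.3% for BCL6. For STAT3 it was 27.0 to 37.6% in number 1 and 64.9 to 75.9% in numbers 2 and 3. Over all genes the numbers differed less: introns held 29.1 to 34.1% of reads in number 1, against 34.5 to 43.3% in numbers 2 and 3. Number 1 was also lowest for BCL6 and SOCS2, while the ranges of the numbers overlapped for SOCS1, CISH and PIM1. For PIM2 number 2 was lowest. SOCS2 spans 92325 bases with 3 exons of 1119 bases in all, at chr15:33785545-33877869 on the plus strand of CanFam3.1. SOCS1, at chr6:31509268-31511557 on the plus strand, has 3 annotated exons of 594 bases and had 0 reads across exon junctions in all 12 libraries. CISH lies at chr20:38762378-38766620 on the plus strand, with 3 exons of 774 bases.

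**Figure D3:**
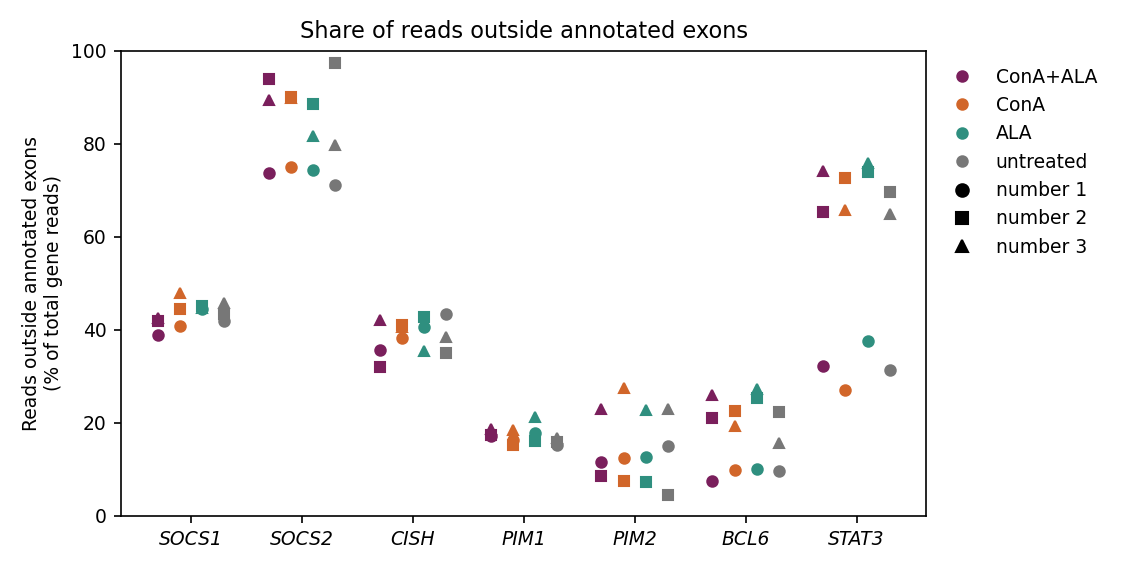
Share of each member's reads that fell outside its annotated exons, in percent, per library, with colour for the group and marker shape for the number. SOCS2 lies between 71.1 and 97.3%, PIM1 between 15.2 and 21.2%, and STAT3 splits by number, with 27.0 to 37.6% in number 1 and 64.9 to 75.9% in numbers 2 and 3.

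The remaining members lie on other chromosomes of the same build. PIM1 is at chr12:6211867-6217933 on the plus strand with 7 exons, and STAT3 at chr9:20539697-20612672 on the plus strand with 25. BCL6 is at chr34:20113322-20124704 on the minus strand with 11 exons, and PIM2 at chrX:42073457-42077543 on the minus strand with 6. Exon reads were unique to the gene for all of them except BCL6, at 98.0%, which overlaps RTP2, a gene with 0 exon reads.

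The pathway that the members feed back on was described with lists of genes, each given with ConA against untreated cells first. In that comparison group means called 18.5% of all tested genes and the block 42.5%, the shares to set beside each list's counts. Among cytokine ligands of JAK-coupled receptors, 8 of 17 tested genes rose and 1 fell with group means, with a median log2 change of 1.86 against −0.05 over all genes. The gene that fell was IL12B, a subunit of IL-12, at 0.154, 0.0 and 0.0 CPM with ConA, against 2.57, 10.99 and 1.40 CPM in untreated cells. Its call remained in 9 of 12 fits without 1 library, with a highest adjusted p of 0.0788 in those leaving out number 2 of either group or ConA 3. The genes that rose included IL21, a T cell cytokine that signals through STAT3, at 5.31 ± 0.69 (edgeR adjusted p = 0.000639), and OSM, a cytokine of the IL-6 family, at 1.88 ± 0.27 (adjusted p = 0.00102). Of 18 tested receptor chains 5 rose (IL2RA, IL12RB2, IL6ST, IL21R and IL15RA) and 3 fell (CSF3R, IL13RA1 and IL7R). IL2RA, the alpha chain of the IL-2 receptor, rose by 3.34 ± 0.36 (adjusted p = 0.000272), and IL6ST, the shared signalling chain of the IL-6 family, by 1.55 ± 0.23 (adjusted p = 0.00120). The calls on IL21, OSM, IL2RA and IL6ST held with each of the 12 libraries left out.

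JAK kinases and STATs moved in both directions. Of the 4 JAK kinases, JAK2 rose by 0.75 ± 0.22 (edgeR adjusted p = 0.0323) and TYK2 fell, at −1.11 ± 0.28 (adjusted p = 0.0177), with the group means. With the block JAK1 fell too (adjusted p = 0.00134). Among the 6 other STATs, STAT2, a carrier of interferon signals, fell with group means, at −1.19 ± 0.18 (edgeR adjusted p = 0.00126), and did so in all 12 fits without 1 library. STAT4, which carries the IL-12 signal, rose in the blocked model alone (adjusted p = 0.00172). With group means the calls on JAK2 and TYK2 were lost in some fits without 1 library, the highest adjusted p being 0.122 for JAK2 and 0.0712 for TYK2, while their blocked calls held in all 12 such fits.

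Of the other SOCS genes, SOCS5, SOCS6 and SOCS7 were tested and 0 of 3 passed in either model, with changes of −0.42 ± 0.32, 0.86 ± 0.43 and −0.41 ± 0.41. Among 12 other inhibitors of the pathway, the phosphatase gene PTPN1 rose with group means (0.88 ± 0.27, edgeR adjusted p = 0.0409), and with the block PTPN2 (0.96, adjusted p = 0.000157), PTPN1, PTPN11 and CBLB rose and PTPRC, PIAS1 and SH2B3 fell. Without 1 library the blocked call remained in 4 of 12 fits for SH2B3 (highest adjusted p = 0.189), 9 of 12 for CBLB (0.111) and 11 of 12 for PTPN11 (0.0631). The PTPN1 call with group means remained in 3 of 12 fits without 1 library. Of 4 partners of the SOCS box, ELOC, which encodes elongin C and links the box to its ubiquitin ligase, rose by 1.26 ± 0.24 (adjusted p = 0.00453).

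Beside PIM1 and PIM2, 2 of 8 tested genes of cytokine-driven growth and survival rose with group means. CCND2, a cyclin of the early cell cycle, rose by 1.99 ± 0.55 (edgeR adjusted p = 0.0252) and BCL2L1, a survival gene, by 1.28 ± 0.35 (adjusted p = 0.0261). Each of these calls was lost in 3 of 12 fits without 1 library, with a highest adjusted p of 0.109 and 0.106, and both held in all 12 with the block. Of 8 partners and opponents of BCL6, ICOS, a costimulatory receptor of follicular helper T cells, rose by 3.04 ± 0.52 (adjusted p = 0.00238). PRDM1, a repressor that opposes BCL6, was at 148, 194 and 327 CPM with ConA, against 57.6, 56.5 and 231 CPM in untreated cells, and rose with the block (1.23 ± 0.20, adjusted p = 0.000265) but not with group means (0.96 ± 0.67, adjusted p = 0.364).

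With ConA and ALA against ALA, the same lists gave 9 of 17 ligands higher and 0 lower with group means, 5 higher and 2 lower of 18 receptor chains, 0 of 4 JAK kinases, 1 higher (STAT4) and 1 lower (STAT2) of 6 other STATs, 0 of 12 other inhibitors and 0 of 3 other SOCS genes. ELOC among the SOCS box partners (1.20 ± 0.24, edgeR adjusted p = 0.0122) and ICOS among the BCL6 partners (2.32 ± 0.51, adjusted p = 0.0171) rose, and 0 of 8 growth and survival genes passed. With the block the counts were higher: 1 JAK kinase rose (JAK2) and 2 fell (TYK2 and JAK1). Of the other inhibitors 3 rose (PTPN1, PTPN2 and PTPN11) and 1 fell (PIAS1). Of the growth and survival genes 4 of 8 rose, CCND2 and BCL2L1 among them. Of all tested genes, group means called 8.12% and the block 30.1% (15.8% upwards). SOCS6 was the other SOCS gene that rose with the block (0.88 ± 0.32, adjusted p = 0.0495), a call that remained in 5 of 12 fits without 1 library (highest adjusted p = 0.196). The ELOC and ICOS calls were lost in 2 and 3 of 12 fits without 1 library. In the 2 comparisons that add ALA, 0 genes of any list passed with group means. With the block IL15, a cytokine that uses IL-2 receptor chains, fell with ConA and ALA against ConA (−1.10 ± 0.21, adjusted p = 0.0308), a call that remained in 5 of 12 fits without 1 library. In the same comparison the block also called the monocyte marker FCGR1A (2.22 ± 0.32, adjusted p = 0.0171) and the neutrophil marker S100A8 (0.90 ± 0.15, adjusted p = 0.0118) upwards, in 7 and 8 of 12 such fits. IL15 was at 11.8, 16.6 and 17.6 CPM with both agents, against 23.6, 39.8 and 36.1 CPM with ConA. IL2 itself was at 32.6, 64.7 and 96.3 CPM with both, against 6.55, 18.6 and 21.9 CPM with ConA. It was not called (2.05 ± 0.60, edgeR adjusted p = 0.821, and 0.193 with the block).

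**Figure D4:**
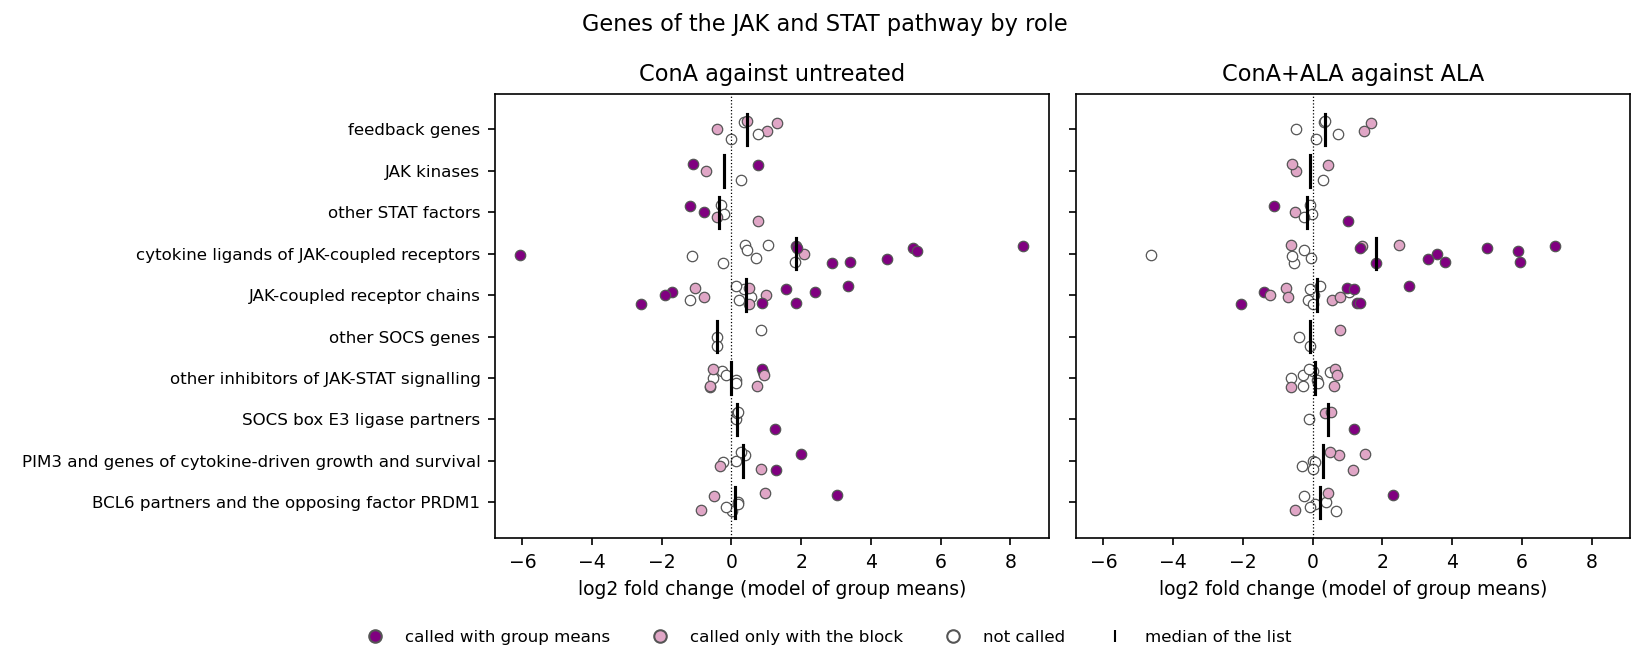
Log2 fold change from the model of group means (horizontal axes) of each tested gene in the pathway lists and of the 7 members (top row), in the comparison named above each panel. Dark points passed with group means, light points only with the block and open points in neither, and the short bar is the list's median. Ligands have a median of 1.86 with ConA against untreated cells, while the JAK kinases and other STATs lie on both sides of 0.

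Markers of the cell types in the culture moved with ConA as well. With ConA against untreated cells and group means, 1 of 14 T cell markers rose (CD28) and 3 fell (CD7, CD5 and LCK). Of the others, 2 of 10 B cell (BLK and CD79B), 3 of 9 monocyte (FCGR1A, LYZ and S100A12), 2 of 6 neutrophil (S100A8 and CSF3R) and 1 of 4 NK cell markers (KLRD1) fell. The block gave larger counts, with 1 of 14 T cell markers up and 9 down and with 8 of 10 B cell, 8 of 9 monocyte, 4 of 6 neutrophil and 2 of 4 NK cell markers down. Of all tested genes, 18.5% were called with group means and 42.5% with the block. Summed T cell markers were at 1110 to 1630 CPM with ConA, against 1680 to 2450 CPM in untreated cells, and B cell markers at 1440 to 2490 CPM, against 1590 to 2730 CPM. CD79A made up most of the B cell sum, and without it the other 9 markers were at 152, 415 and 273 CPM with ConA in numbers 1, 2 and 3, against 261, 851 and 406 CPM in untreated cells. NK cell markers summed to 27.1 to 68.1 CPM with ConA, against 46.0 to 111 CPM in untreated cells, and neutrophil markers to 81.9 to 155 CPM, against 193 to 420 CPM. MMP9, the most abundant neutrophil marker over the 12 libraries, was higher with ConA in number 1 and lower in numbers 2 and 3. The other 6 neutrophil markers summed to 46.7, 52.0 and 37.8 CPM with ConA in numbers 1, 2 and 3. In untreated cells they summed to 194, 133 and 106 CPM. None of the T cell, B cell, monocyte and NK cell markers measured was at 0 in a whole group, and the neutrophil marker CXCR2 was at 0 in all 3 libraries with ConA. SOCS1, CISH and STAT3 lay higher with ConA while the summed T cell markers lay lower, and the part of cell makeup in their values was not tested.

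Over the 12 libraries, the member most alike to CISH was STAT3 (Pearson r = 0.803 of log2(CPM + 1)), and BCL6 and PIM1 were the most alike to each other (r = 0.817). SOCS1 and PIM2 were less like any other member. The highest r of SOCS1 was 0.471, to PIM2, and that of PIM2 was 0.479, to SOCS2. The lowest r of SOCS1 was −0.680, to BCL6. The tested genes most like SOCS1 were PRCC (0.980), NDUFB11 (0.963) and DUS3L (0.962), and those most like CISH were SLC5A6 and TRAF1 (0.969 each) and MBD3 (0.967). Among the genes most like BCL6 were ZNF18 (0.969) and PGD (0.968). PIM1 was most like STIM1 (0.968), UNC45A (0.958) and SERINC1 (0.952), and STAT3 most like RNPS1 (0.955), COX5B (0.953) and CSNK2A2 (0.951). Among the genes most like PIM2 were SPTY2D1 (0.951) and TMEM214 (0.943), and SOCS2 was most like TM9SF3 (0.938). These values are descriptions, since the 12 libraries share their numbers and groups.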

How the data were processed

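Per the labels' protocols, libraries came from poly(A) RNA with a NEBNext Ultra II kit and were read as 75 bp pairs on a NextSeq 500. The submitters' processing notes name CanFam3.1 and bcl2fastq. Aligner, counter and strand use: not given in the sources used here. Per the file headers, the deposited tables hold counts of exon, intron and total gene reads per gene, not normalized, and TPM made by the authors. Exon counts were used for the tests and TPM only to compare levels between genes.

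The 12 libraries were grouped by title. The test was edgeR's robust quasi-likelihood F-test (version 4.0.16, R 4.3.3) with TMM scaling and filterByExpr, over 4 group means. The BCV was 0.422, and 0.217 with the number as a block. The numbers pair the libraries: deviations from group means (log2(CPM + 1)) correlated at 0.472 to 0.846 in the 18 pairs of equal number, all above 0.1, and at −0.627 to 0.289 in other pairs. Intervals of folds are 95% and come from the blocked model. In simulated counts of ConA against untreated cells, 69 of 100 genes changed by a log2 of 2 and 89 of 100 changed by 3 were recovered over 13358 genes.

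The members, the lists and the rule for named genes were chosen with earlier results of these data known. The rule took all members, up to 3 genes per list by smallest p, the 3 genes most alike to each member and one other member, and IL2, IL21, IFNG, IL10 and IL2RA. Other listed genes named, such as IL15, IL12B and PRDM1, were chosen after their values were seen. A few genes that meet the rule are not reported. Alternatives were DESeq2 1.42.0, limma-voom 3.58.1, DESeq2-type size factors, unique exon reads, only the compared groups, no filter or a minimum mean of 50 counts, hemoglobin and mitochondrial genes dropped, and each library or number left out. Added later, with the data in view, were total gene reads, the block in DESeq2 and the block without each library or number.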

Additional observations from a re-analysis of the deposited data

How the results depend on the processing

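With ConA against untreated cells, the members called numbered 0 with group means, 4 with the replicate block, 1 with DESeq2, 1 with total gene reads, 4 with the block and total gene reads and 5 with the block in DESeq2. Of all tested genes, the same settings called 18.5, 42.5, 24.9, 14.9, 38.8 and 45.0%, in that order. Leaving out a library or a number gave 0 to 2 calls with group means and 1 to 5 with the block. With ConA and ALA against ALA the counts were 0, 2 (replicate block), 2 (DESeq2), 1 (no filter), 2 (total gene reads), 1 (compared groups only), 3 (block and total gene reads) and 2 (block in DESeq2), and leave-outs gave 0 to 2 with group means and 2 to 4 with the block. There, of all tested genes, group means called 8.12%, the block 30.1%, DESeq2 13.7% and total gene reads 6.36%. The block called 27.9% on total gene reads and 33.2% in DESeq2. Without a filter, 535 genes rose and 320 fell of 20979. With only the compared groups, 498 rose and 238 fell of 12500. SOCS1 and CISH with ConA had the same sign under every alternative run. PIM1 with ConA against untreated cells turned to 0.055 on total gene reads and 0.036 with the block added, where group means gave −0.02. Leaving out a library or number turned some small changes: PIM1 ranged over −0.21 to 0.23 and PIM2 over −0.18 to 1.08 with ConA against untreated cells, PIM1 over −0.088 to 0.33, PIM2 over −0.025 to 0.94 and BCL6 over −0.94 to 0.099 with ConA and ALA against ALA, CISH over −0.54 to 0.29 with ALA against untreated cells, and SOCS1 over −0.38 to 0.19 and CISH over −0.32 to 0.64 with ConA and ALA against ConA. These ranges pool the fits of both models. With the block and 1 library left out, PIM2 stayed at 0.23 to 0.58 with ConA against untreated cells. With ConA and ALA against ALA, PIM1 stayed at 0.034 to 0.18, PIM2 at 0.27 to 0.58 and BCL6 at −0.59 to −0.32. Blocked fits without a number kept these signs too. The other changes listed took both signs with the block as well. The cause of these turns was not tested. In the group-means model SOCS1 passed with ConA against untreated cells without untreated 3 (1.52, adjusted p = 0.0320) and without number 1 (0.93, adjusted p = 0.0283), and CISH without number 1 (adjusted p = 0.0356). With ConA and ALA against ALA, SOCS1 passed without untreated 1, ConA 1, untreated 3 or number 1 (adjusted p of 0.0210, 0.0381, 0.0345 and 0.0112) and CISH without number 1 (0.0386). SOCS2 had 4 to 141 exon reads per library. The simulated recovery was for log2 changes of 2 and 3 only.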
